A study of Mus musculus with 13 samples.

Results

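T cell and intraepithelial lymphocyte genes were examined in the ileum and colon of mice that drank vancomycin and of mice that did not. A list of 39 genes was used, and each was taken from the array table as the probe set (the group of probes that reports 1 gene) annotated with its symbol. Of the 39 genes, 34 had a named probe set, out of 19505 genes with one, and no member had more than 1 probe set. Cd27, Lck, Gata3, Tcf7 and Foxp3 were not matched to a probe set and were not analysed here. The members were grouped by role. All 7 genes of the T cell receptor complex and its co-receptors were measured, 6 of 7 accessory receptors, 6 of 7 signalling genes, all 5 killer-cell receptors, all 3 genes of tissue residence and cytokine reception, 3 of 5 lineage transcription factors and 4 of 5 regulatory genes.

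T cells recognise antigen through a receptor that is coupled to the CD3 chains and signals through kinases and adaptors such as Zap70 and Lat. In the mouse small intestine a large population of T cells lies within the epithelium. Many of these intraepithelial lymphocytes carry CD8 alpha homodimers, the integrin CD103, which binds E-cadherin on epithelial cells, and receptors first known from natural killer cells, and they hold granzymes in their granules.

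The samples came from female FVB mice that all carried a mammary carcinoma expressing human HER2, and each sample was whole washed ileum or colon rather than sorted cells. Vancomycin, an antibiotic that acts on Gram-positive bacteria, was dissolved at 200 mg/L in the drinking water once the mice were 4 weeks old. Tissue was taken at 9 weeks, which may be age or time on treatment, with tumours of 150 mm3. There were 3 arrays of vancomycin ileum (replicates 11, 13 and 14), 3 of ileum without antibiotic (replicates 1, 2 and 3), 3 of vancomycin colon (replicates 11, 13 and 14) and 4 of colon without antibiotic (replicates 1, 2, 3 and 5). Nothing in the labels ties each array to its own mouse, so a p-value reflects only how far these samples spread, and that spread may be technical. Precision is limited by the small number of arrays. Values are log2 expression after RMA, an array normalisation, and a difference is the vancomycin mean minus the mean without antibiotic, or ileum minus colon, with its standard error (SE) from limma. A member passed when its p, adjusted by Benjamini-Hochberg over 19572 named probe sets, was under 0.05. Levels of different probe sets are not comparable, so genes are compared only by their differences. In whole tissue, fewer cells of a type and less RNA per cell cannot be told apart.

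The tissue labels held in every array. Sis, the ileal sucrase-isomaltase, lay between 14.67 and 15.47 in ileum arrays, against 6.03 to 7.16 in colon arrays. Car1, a carbonic anhydrase of colonocytes, lay between 6.40 and 8.38 in ileum arrays, against 16.05 to 17.42 in colon arrays. One vancomycin ileum, replicate 11, was unlike the rest of its group. Its mean over 11 B cell and follicle genes was 10.46, where replicates 13 and 14 had 7.96 and 7.53 and untreated ilea had 7.56 to 8.31. Its mean over 9 smooth muscle genes was 14.33, where replicates 13 and 14 had 13.41 and 12.92 and untreated ilea had 12.72 to 12.96. Its mean over 9 epithelial genes was 15.25, where replicates 13 and 14 had 15.71 and 15.79. For the members and lists whose ileum result moved most with this array, the value without it is given beside the value with all arrays.

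In the ileum, vancomycin went with lower expression of killer-cell receptors, of residence genes and of single accessory receptors. No gene of the receptor complex, of signalling, of the transcription factors or of the regulatory group passed. In the receptor complex, Cd3g (-1.79, adjusted p = 0.0542) and Cd8a (-1.35, adjusted p = 0.0724) differed as much as some members that passed. The roles were not tested against each other. Of the 34 members, 7 fell and 0 rose in limma, where 0.485% of all probe sets fell and 0.0511% rose. They were 3 of 5 killer-cell receptors (Cd244a, Klrd1 and Cd96), 2 of 3 residence and cytokine receptor genes (Itgae and Il2rb) and 2 of 6 accessory receptors (Cd7 and Cd6). In 10 of the 34 members every vancomycin ileum lay below every ileum without antibiotic, a pattern seen in 8.34% of all probe sets. A fit of the 6 ileum arrays alone kept only Cd244a and Itgae, and the other 5 did not pass there (adjusted p = 0.0504 for Cd7, 0.124 for Cd96, 0.133 for Il2rb, 0.168 for Klrd1 and 0.227 for Cd6). At an unadjusted p under 0.05 there were 13 of 34 members, against 10.1% of all probe sets. The median difference of the members was -0.31, and that of all probe sets 0.02.

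**Figure D1:**
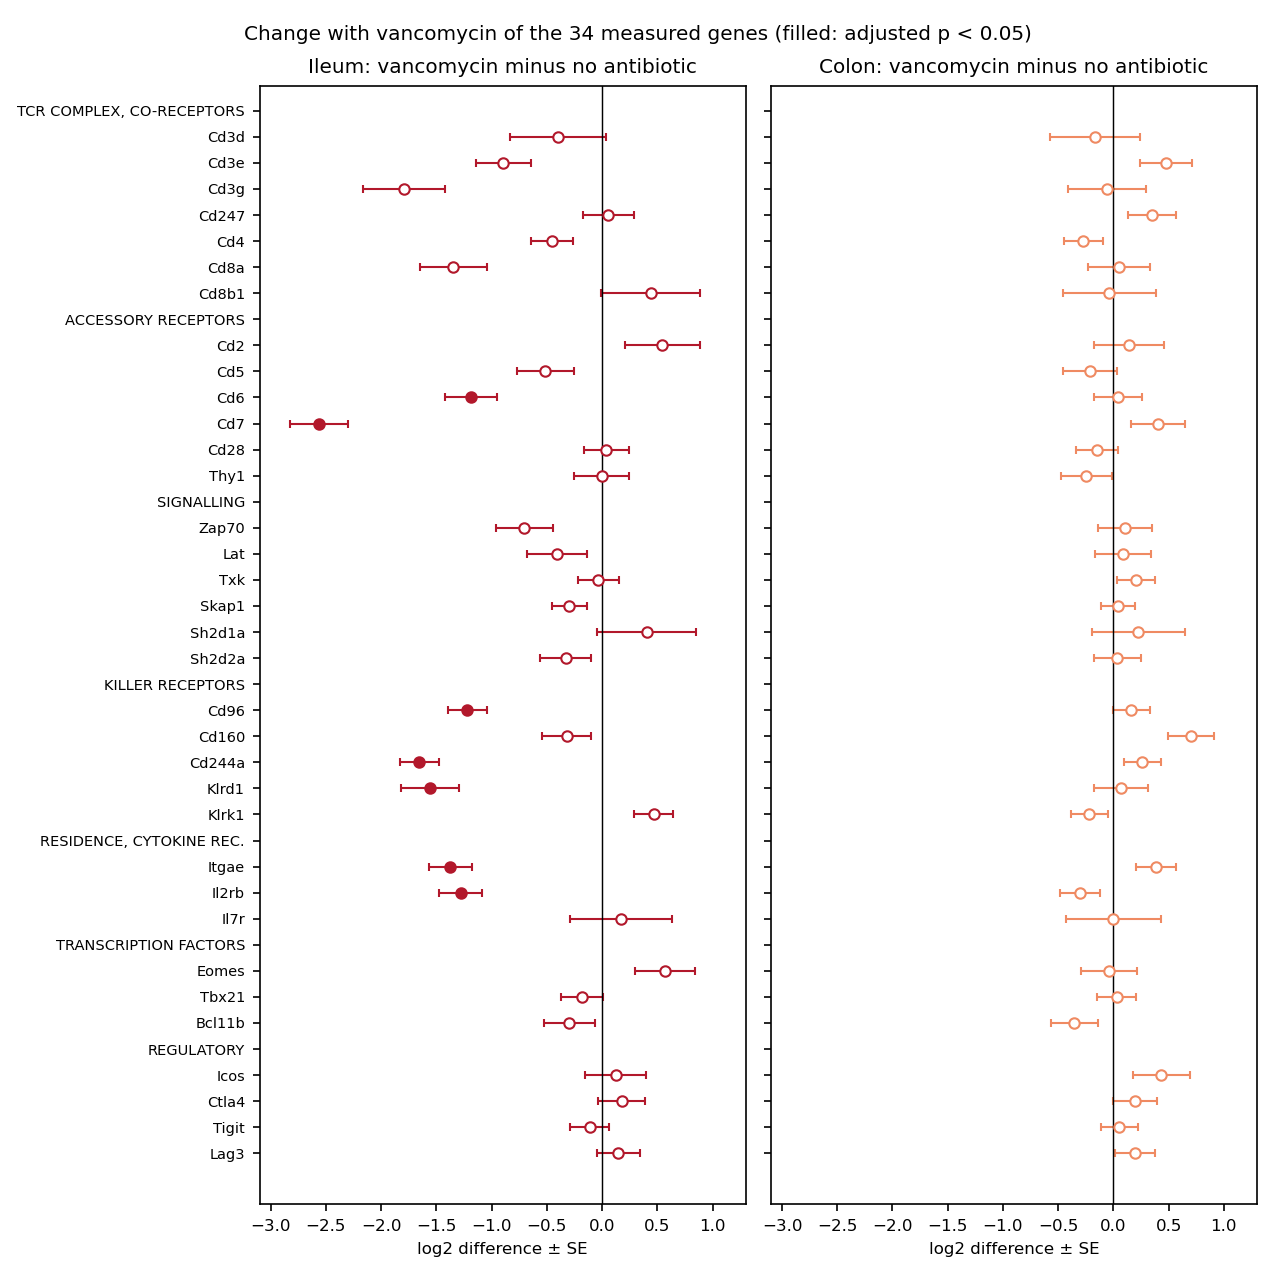
Log2 difference with vancomycin (vancomycin minus no antibiotic, ± SE) for each of the 34 measured genes, grouped by role, in the ileum on the left and the colon on the right. Filled points passed the adjusted threshold of 0.05. All 7 filled points lie in the ileum, below 0, among accessory, killer and residence genes, and the colon points range from -0.35 to 0.70.

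Among the killer-cell receptors, Cd244a, which encodes the SLAM-family receptor 2B4 for CD48, read 8.53, 8.16 and 8.64 in replicates 11, 13 and 14 of the vancomycin ileum, against 9.93, 10.11 and 10.25 in replicates 1, 2 and 3 without antibiotic. The groups did not overlap, and Cd244a fell by 1.65 ± 0.18 (SE, n = 3 each, adjusted p = 0.000406). Cd96, a receptor for the nectin-like molecule CD155, read 9.20, 8.41 and 8.89 in the vancomycin ilea, against 10.06, 10.08 and 10.02 without antibiotic. The 3 arrays without antibiotic lay close together and every vancomycin array was lower, and Cd96 fell by 1.22 ± 0.18 (adjusted p = 0.00506). Klrd1, which encodes CD94, the partner of the NKG2 receptors, read 7.41, 7.20 and 8.11 in the vancomycin ilea, against 8.64, 9.39 and 9.36 without antibiotic. It fell by 1.56 ± 0.26 (adjusted p = 0.0156), with the smallest gap between the groups of these 3 genes. That call was lost without vancomycin replicate 13 (adjusted p = 0.0818) and without either replicate 2 (adjusted p = 0.0659) or replicate 3 (adjusted p = 0.114) of the ileum without antibiotic.

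The other 2 killer-cell receptors did not pass. Cd160, which binds the herpesvirus entry mediator, read 8.48, 8.05 and 8.57 in the vancomycin ilea and 8.82, 8.69 and 8.55 without antibiotic, so the groups overlapped (-0.32 ± 0.22, adjusted p = 0.649). Klrk1, which encodes NKG2D, the receptor for stress-induced ligands, read 5.93, 5.41 and 5.87 in the vancomycin ilea and 5.51, 5.03 and 5.27 without antibiotic (0.47 ± 0.18, adjusted p = 0.389), opposite in sign to the other 4. Klrk1 lies in the lowest tertile of named probe sets by mean level (below 6.79), as do Cd6, Cd28, Skap1, Il2rb, Eomes, Tbx21, Ctla4 and Tigit. The mean of the 5 killer-cell receptors was 7.91, 7.45 and 8.02 in the vancomycin ilea, against 8.59, 8.66 and 8.69 without antibiotic, and the groups did not overlap.

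Itgae encodes the alpha chain of CD103. It read 6.92, 6.74 and 6.64 in the vancomycin ilea, against 7.94, 8.24 and 8.24 without antibiotic, and fell by 1.37 ± 0.20 with no overlap (adjusted p = 0.00432). Il2rb, the beta chain shared by the receptors for interleukin-2 and interleukin-15, read 7.06, 6.45 and 6.26 in the vancomycin ilea, against 7.71, 7.99 and 7.91 without antibiotic. It fell by 1.28 ± 0.20 (adjusted p = 0.00746), a call that was lost without replicate 3 of the ileum without antibiotic (adjusted p = 0.0537). Il7r, the receptor chain for interleukin-7 that is high on naive and memory T cells, read 10.44, 8.90 and 7.89 in the vancomycin ilea and 9.21, 8.47 and 9.03 without antibiotic. Replicate 11 held the highest Il7r value of all 13 arrays, and the difference of 0.17 ± 0.46 did not pass (adjusted p = 0.935). Without replicate 11 the Il7r difference was -0.51 ± 0.31, of opposite sign, and did not pass either (adjusted p = 0.628).

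Of the accessory receptors, Cd7, an immunoglobulin-family protein of T and natural killer cells, read 9.49, 8.95 and 10.35 in the vancomycin ilea, against 12.21, 12.20 and 12.06 without antibiotic. Cd7 fell by 2.56 ± 0.26, more than any other member (adjusted p = 0.000406). Cd6, a receptor for the adhesion molecule Alcam, read 6.81, 6.06 and 6.11 in the vancomycin ilea, against 7.89, 7.24 and 7.41 without antibiotic, and fell by 1.19 ± 0.23 (adjusted p = 0.0409). The Cd6 call was the least stable of the 7: it was lost on leaving out any single array other than replicate 11 of the vancomycin ileum, replicate 2 of the ileum without antibiotic or replicate 11 of the vancomycin colon (adjusted p between 0.0511 and 0.191). Cd5, a scavenger-receptor relative of Cd6 that dampens receptor signals, read 8.47, 7.85 and 7.85 in the vancomycin ilea and 8.78, 8.27 and 8.66 without antibiotic, which overlapped (-0.51 ± 0.26, adjusted p = 0.527). The costimulator Cd28 (0.04 ± 0.20), the adhesion receptor Cd2 (0.55 ± 0.34) and Thy1 (0.00 ± 0.25), a surface glycoprotein of mouse T cells, did not pass either. Without vancomycin replicate 11 these differences were -0.11 ± 0.21 for Cd28, 0.04 ± 0.23 for Cd2 and -0.40 ± 0.15 for Thy1, and again did not pass.

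**Figure D2:**
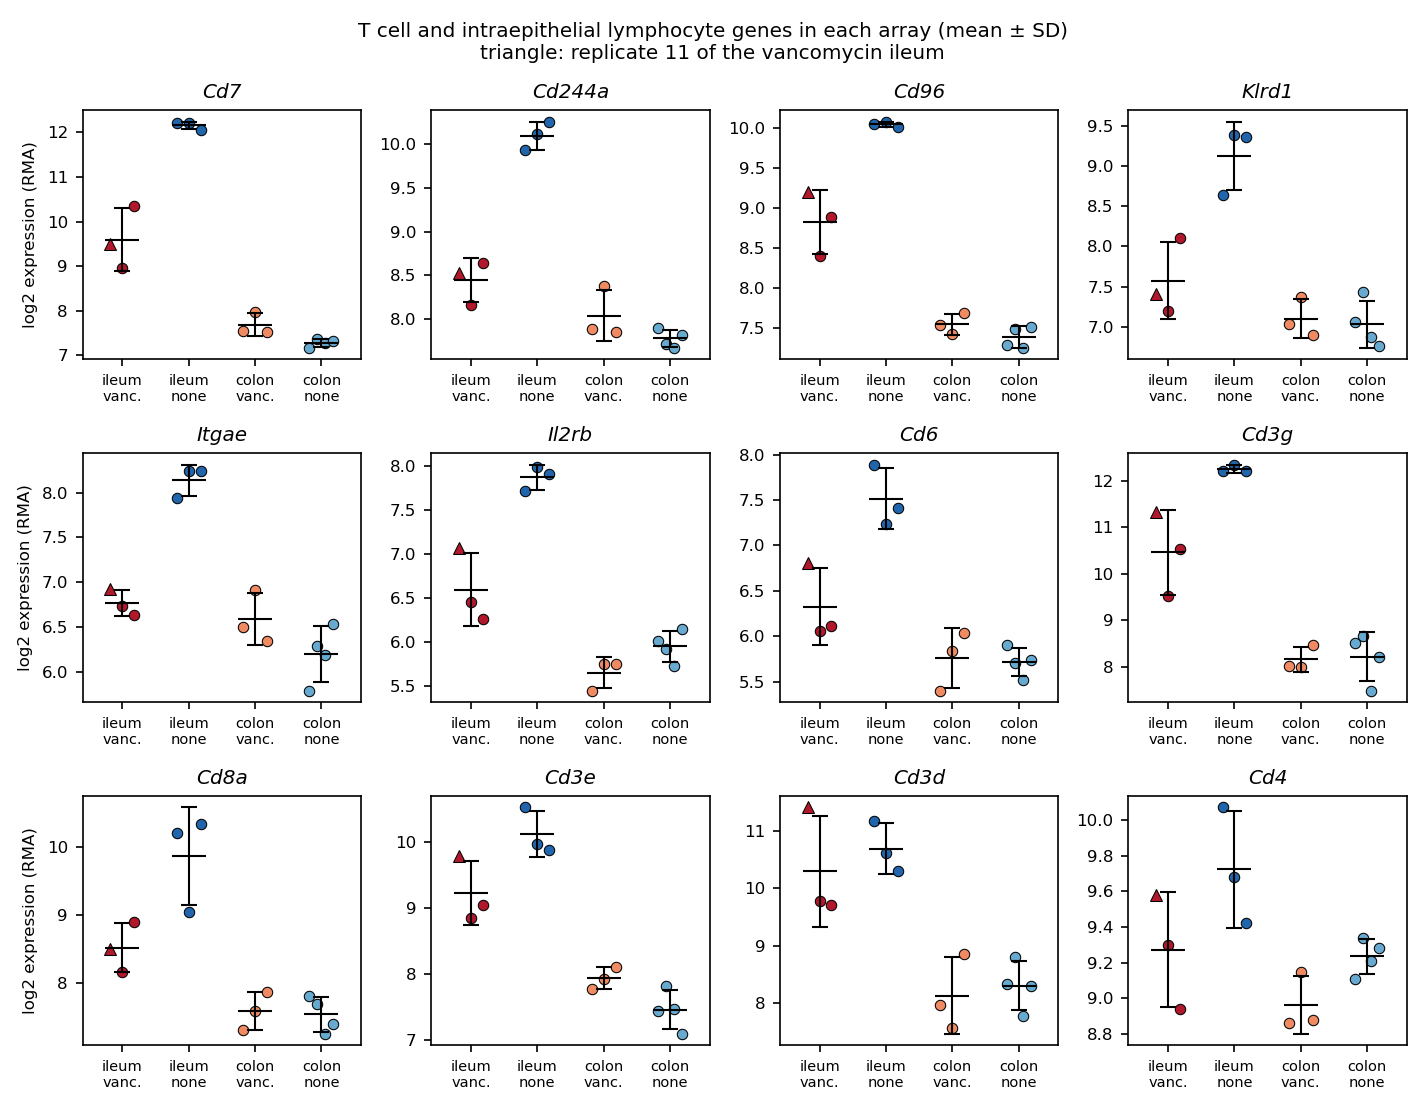
Log2 expression in each array for 12 genes, 1 panel a gene, with vancomycin ileum, ileum without antibiotic, vancomycin colon and colon without antibiotic from left to right. Points are arrays, the bars give mean ± SD, the vertical axes differ between panels and do not start at 0, and the triangle is replicate 11 of the vancomycin ileum. Cd7, Cd244a, Cd96, Klrd1, Itgae, Il2rb, Cd6, Cd3g, Cd8a and Cd3e separate the ileum groups completely, and Cd3d and Cd4 do not.

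In the receptor complex 0 of 7 genes passed in limma, while 4 had an unadjusted p under 0.05 and 3 did not overlap between the ileum groups. Cd3g, the CD3 gamma chain, read 11.33, 9.51 and 10.54 in the vancomycin ilea, against 12.20, 12.35 and 12.21 without antibiotic, a difference of -1.79 ± 0.38 (adjusted p = 0.0542). Cd3e, the epsilon chain, read 9.79, 8.86 and 9.05 in the vancomycin ilea, against 10.53, 9.97 and 9.88 without antibiotic (-0.89 ± 0.25, adjusted p = 0.182). In both genes replicate 11 was the highest of the vancomycin arrays. Without it, both passed in limma: Cd3g fell by 2.23 ± 0.33 (adjusted p = 0.00406) and Cd3e by 1.17 ± 0.23 (adjusted p = 0.0268), and the signalling gene Zap70 fell by 1.04 ± 0.21 (adjusted p = 0.0326). Cd3g also passed without replicate 3 of the colon without antibiotic (adjusted p = 0.0453) and after centring each array on its median (adjusted p = 0.0378). Cd3e and Zap70 passed in neither of these runs. Cd3g did not pass in the fit of all ileum arrays alone, after quantile normalization or on leaving out any other single array. With the ileum arrays alone and replicate 11 left out, Cd3g (adjusted p = 0.00919) and Cd3e (adjusted p = 0.0467) passed and Zap70 did not. Array weights give less weight to arrays that fit their group poorly. In the vancomycin ileum they were 0.302, 3.792 and 0.644 for replicates 11, 13 and 14, so the weighted mean rested mostly on replicate 13. With these weights 534 of all 19572 probe sets fell, against 95 without them, so calls were more frequent throughout. In that run 5 further members fell. They were Cd3g (-2.49, adjusted p = 0.000103), Cd8a (-1.53, adjusted p = 0.00615), Cd3e (-1.17, adjusted p = 0.00271), Zap70 (-1.19, adjusted p = 0.00230) and Lat (-0.77, adjusted p = 0.0298).

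Cd8a, which encodes the CD8 alpha chain of both CD8 dimers, read 8.51, 8.17 and 8.90 in the vancomycin ilea, against 10.22, 9.05 and 10.35 without antibiotic (-1.35 ± 0.30, adjusted p = 0.0724). Replicate 2 without antibiotic lay more than 1 below the other arrays of its group, and without it Cd8a fell by 1.76 (adjusted p = 0.00443). Leaving out vancomycin replicate 11 instead gave -1.34 ± 0.34 for Cd8a, which did not pass (adjusted p = 0.108). Cd8b1, the beta chain found only in the heterodimer, read 9.24, 7.99 and 9.10 in the vancomycin ilea and 8.15, 9.48 and 7.38 without antibiotic, which overlapped (0.44 ± 0.45, adjusted p = 0.771). The difference Cd8a minus Cd8b1 within an array was -0.73, 0.18 and -0.20 in the vancomycin ilea, against 2.07, -0.43 and 2.97 without antibiotic. Replicate 2, low in Cd8a, was also the array of its group highest in Cd8b1, and the change of -1.79 in this within-array difference gave p = 0.3 in a two-sided exact permutation test, whose smallest possible p with 3 against 3 arrays is 0.1.

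Cd3d, the delta chain, read 11.41, 9.77 and 9.71 in the vancomycin ilea and 11.17, 10.61 and 10.30 without antibiotic, and replicate 11 was the highest of all 13 arrays (-0.40 ± 0.44, adjusted p = 0.792). Without replicate 11 the Cd3d difference was -0.95 ± 0.36 and did not pass (adjusted p = 0.338). Cd3g minus Cd3d within an array was -0.08, -0.26 and 0.83 in the vancomycin ilea, against 1.03, 1.74 and 1.91 without antibiotic. The groups did not overlap, the change was -1.40, and the exact permutation p was 0.1, the smallest possible. Cd7 minus Cd3d was -1.92, -0.82 and 0.64 in the vancomycin ilea, against 1.04, 1.59 and 1.76 without antibiotic, again with no overlap and an exact permutation p of 0.1. Adjusted over the 3 pairs, which were chosen after the values were seen, the p-values were 0.15 for both pairs with Cd3d and 0.3 for the CD8 chains. Cd247, the zeta chain (0.06 ± 0.23), and Cd4, the co-receptor of helper T cells (-0.45 ± 0.19, adjusted p = 0.443), did not pass. Without replicate 11 they stood at -0.22 ± 0.21 for Cd247, opposite in sign to the value with all arrays, and -0.60 ± 0.20 for Cd4, and did not pass.

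Cd3g and Cd3d are neighbours that are read in opposite directions, with start sites 1355 bases apart on chromosome 9. Their promoters are shown because the within-array difference of these linked genes separated the ileum groups. That pair was chosen after the values were seen. Its exact permutation p could not fall below 0.1 (adjusted p = 0.15), so that test cannot decide whether the difference changed. Cd96 is shown as a member that fell. Sequences are the 250 bases before the start site from RefSeq (GRCm38.p6), 5′ to 3′ in the direction of the gene. Capitals mark the letters TGTGGT (a RUNX core), AGGAAG (an ETS core) or CAGGTG (an E-box) on either strand, motifs chosen after the data were seen.
Cd96 (chr16:46120249-46120498, minus strand): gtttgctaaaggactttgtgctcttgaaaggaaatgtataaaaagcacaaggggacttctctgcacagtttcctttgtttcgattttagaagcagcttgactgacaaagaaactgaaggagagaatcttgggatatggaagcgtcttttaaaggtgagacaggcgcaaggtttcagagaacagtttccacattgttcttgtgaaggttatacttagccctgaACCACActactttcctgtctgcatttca
Cd3g (chr9:44980432-44980681, minus strand): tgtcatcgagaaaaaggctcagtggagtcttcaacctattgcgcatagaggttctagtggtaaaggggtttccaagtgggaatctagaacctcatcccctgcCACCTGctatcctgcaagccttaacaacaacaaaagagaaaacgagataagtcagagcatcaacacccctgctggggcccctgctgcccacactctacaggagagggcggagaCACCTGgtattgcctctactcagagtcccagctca
Cd3d (chr9:44981536-44981785, plus strand): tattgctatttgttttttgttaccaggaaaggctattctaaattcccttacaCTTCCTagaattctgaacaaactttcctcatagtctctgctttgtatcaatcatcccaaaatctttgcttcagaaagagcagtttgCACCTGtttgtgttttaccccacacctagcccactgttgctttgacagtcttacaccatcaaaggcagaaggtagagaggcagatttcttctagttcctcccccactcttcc
Cd96 held 1 RUNX match that begins 28 bases before the start, and no ETS or E-box match. Cd244a, which also fell, held no RUNX, ETS or E-box match in this window, and its sequence is not shown. Cd3g held 2 E-box matches, 148 and 35 bases before the start, and Cd3d held 1 ETS match at 198 and 1 E-box match at 112 bases. Of all 32851 promoters in the table, 14% held the RUNX letters, 29.5% the ETS letters and 17.2% the E-box letters in the same window. Of the 34 members 19 had a promoter there, 23 promoters in all. Of these 23, 7 (30.4%) held the RUNX letters, 13 (56.5%) the ETS letters and 9 (39.1%) the E-box letters. Zap70, Txk and Cd160 counted more than once, and of the members that fell only Cd96 and Cd244a were included. The difference from the shares of all promoters was not tested. A match of letters is a description and not a binding site.

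Of the 6 signalling genes, 0 passed in the ileum with all arrays in limma and 1, Zap70, had an unadjusted p under 0.05. Zap70, the kinase that docks on the CD3 chains, read 8.39, 7.07 and 7.69 in the vancomycin ilea and 8.27, 8.56 and 8.43 without antibiotic, where replicate 11 alone reached the range of the other group (-0.70 ± 0.26, adjusted p = 0.366). Lat, the membrane scaffold that Zap70 phosphorylates, read 10.83, 9.70 and 9.96 in the vancomycin ilea and 10.63, 10.71 and 10.38 without antibiotic (-0.41 ± 0.27, adjusted p = 0.631). Again only replicate 11 reached the range without antibiotic, and without it the Lat difference was -0.74 ± 0.23 (adjusted p = 0.217). The adaptor Sh2d1a, which signals from SLAM-family receptors such as 2B4, read 9.75, 7.87 and 7.89 in the vancomycin ilea and 8.54, 7.60 and 8.16 without antibiotic (0.40 ± 0.45, adjusted p = 0.795). Replicate 11 was the highest of these 6 Sh2d1a values, and without it the difference was -0.22 ± 0.33 (adjusted p = 0.881). The Tec-family kinase Txk (-0.03 ± 0.19) and the adaptors Skap1 (-0.30 ± 0.16) and Sh2d2a (-0.33 ± 0.23) did not pass. Without replicate 11, 1 of the 6 signalling genes fell (Zap70, above), all 6 were lower by sign and their median difference was -0.40.

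The transcription factors and regulatory genes differed by 0.57 or less in size. Of these, Eomes, Tbx21, Ctla4 and Tigit lie in the lowest tertile of named probe sets by mean level. Tbx21, the T-box factor of type 1 lymphocytes, differed by -0.18 ± 0.19, its relative Eomes by 0.57 ± 0.27 and Bcl11b, which maintains T cell identity, by -0.30 ± 0.23, and 0 of these 3 passed, also at an unadjusted p under 0.05. In the regulatory group 0 of 4 passed, again also unadjusted, with a median of 0.14: the costimulator Icos at 0.12 ± 0.28, and the inhibitory receptors Ctla4 at 0.18 ± 0.21, Tigit at -0.11 ± 0.18 and Lag3 at 0.15 ± 0.20. Icos, Lag3 and Tigit were highest of all 13 arrays in replicate 11, and Icos read 8.76, 7.75 and 7.66 in the vancomycin ilea, against 8.25, 7.93 and 7.62 without antibiotic. Without replicate 11 the median of the regulatory genes was -0.16, with Icos at -0.23 ± 0.23, Ctla4 at 0.19 ± 0.24, Tigit at -0.26 ± 0.18 and Lag3 at -0.09 ± 0.17, and 0 of 4 passed, also unadjusted. Icos and Lag3 thus changed sign. Among the factors Eomes was at 0.22 ± 0.22 without that array. Regulatory T cells could not be followed by Foxp3, which was not analysed here.

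The members' values in replicate 11 varied by class. It exceeded both other vancomycin ilea in 24 of 34 members (70.6%), against 36.5% of all probe sets. Its value minus the mean of the other arrays of its group had a median of 0.66 over all 34 members, where the median of all probe sets was -0.02. It was the highest of the 6 ilea in 14 of 34 members (41.2%), against 25.9% of all probe sets, and in all 11 B cell genes. Members highest above their group there were Il7r by 2.05, Sh2d1a by 1.87, Cd3d by 1.67, Cd2 by 1.51, Cd3g by 1.31 and Thy1 by 1.19. Cd7 (-0.16), Klrd1 (-0.25) and Cd8a (-0.03) were not higher there, and the median over the 5 killer-cell receptors was 0.17. Without replicate 11, 10 of 34 members fell, against 0.664% of all probe sets. By sign 29 members were lower and 5 higher, where 9112 of all probe sets were lower and 10458 higher. The median of the members without replicate 11 was -0.45. All 7 members called with every array passed again without it. The part of B cell and smooth muscle content in the members' levels of replicate 11 was not tested.

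**Figure D3:**
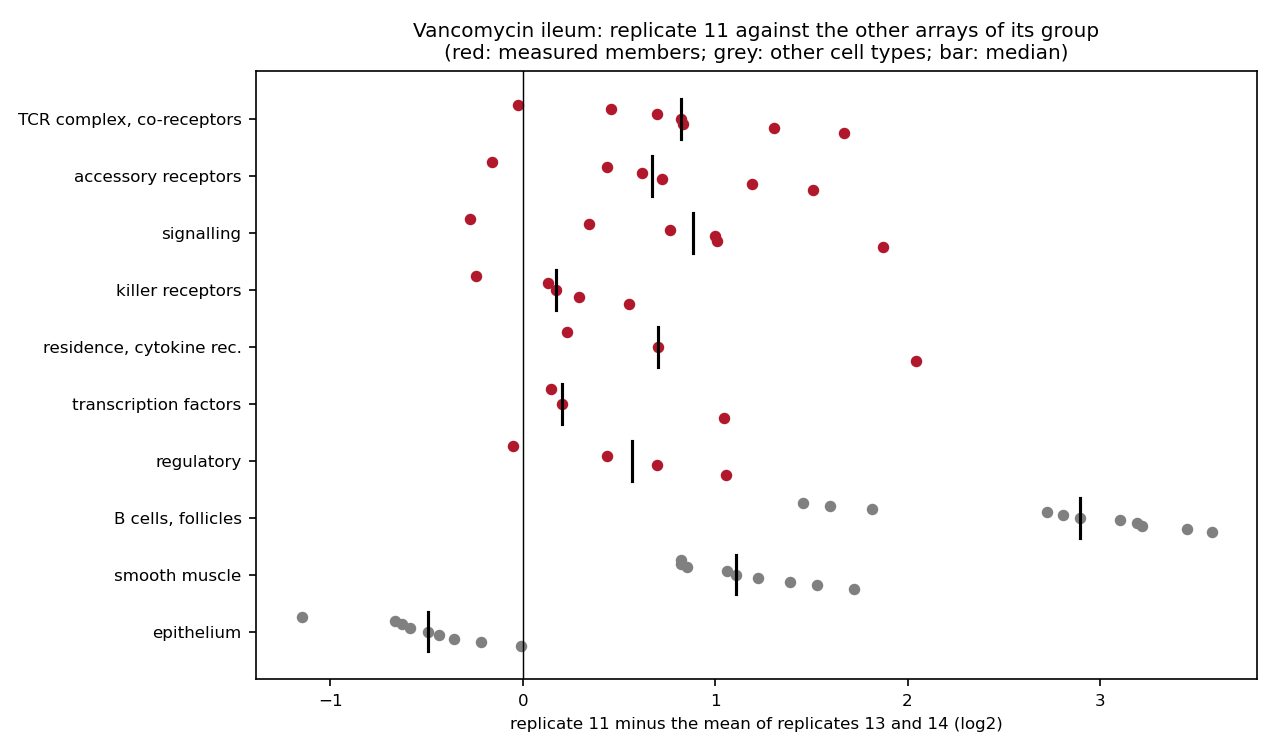
Replicate 11 of the vancomycin ileum minus the mean of replicates 13 and 14 (log2), 1 point a gene, with red points for the measured T cell and intraepithelial lymphocyte genes by role, grey points for genes of other cell types, and black bars for medians. The B cell points all lie above 1.45 and the smooth muscle points above 0, the epithelial points lie below 0, and the killer-cell receptors lie between -0.25 and 0.55.

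In the colon, no member passed with vancomycin. In limma 0 of 34 passed, where 0.0102% of all probe sets (2 of 19572) did, and at an unadjusted p under 0.05 there was 1 member, Cd160, against 15.9% of all probe sets. Array weights called 38 probe sets in the colon but 0 members, and leaving out any single array called 0 members. The members' median difference was 0.05, and that of all probe sets 0.02. Groups did not overlap in 4 of 34 members (Cd247, Cd7 and Cd160 higher and Thy1 lower with vancomycin), against 12.3% of all probe sets.

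Cd160 read 7.98, 8.05 and 7.61 in replicates 11, 13 and 14 of the vancomycin colon, against 7.31, 7.15, 7.59 and 6.66 in replicates 1, 2, 3 and 5 without antibiotic (0.70 ± 0.21, adjusted p = 0.167). The lowest vancomycin value lay just above the highest value without antibiotic. Cd7, which fell most in the ileum, read 7.55, 7.98 and 7.53 in the vancomycin colons, against 7.17, 7.38, 7.27 and 7.32 without antibiotic (0.40 ± 0.24, adjusted p = 0.437). Itgae read 6.5, 6.91 and 6.35 in the vancomycin colons and 5.79, 6.29, 6.19 and 6.53 without antibiotic, which overlapped (0.39 ± 0.18, adjusted p = 0.325). For the other 5 genes that fell in the ileum, the colon differences were 0.26 ± 0.16 for Cd244a, 0.16 ± 0.17 for Cd96, 0.07 ± 0.25 for Klrd1, 0.04 ± 0.22 for Cd6 and -0.30 ± 0.18 for Il2rb.

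The difference between the vancomycin effects of the tissues was tested directly. It passed, with a more negative effect in the ileum, for 4 of 34 members, against 0.158% of all probe sets. For Cd7 the ileum effect minus the colon effect was -2.96 ± 0.36 (adjusted p = 0.00687), for Cd244a -1.92 ± 0.24 (adjusted p = 0.00766), for Itgae -1.76 ± 0.27 (adjusted p = 0.0182) and for Cd96 -1.38 ± 0.24 (adjusted p = 0.0409). Colon and ileum share sample numbers. A fixed block for these numbers lost the calls of Cd244a (adjusted p = 0.0677) and Cd96 (adjusted p = 0.0835), and a random block kept all 4. The calls also differed in how much they rested on single arrays. The Cd96 call was lost on leaving out any single array other than replicate 11 of the vancomycin ileum (adjusted p between 0.0585 and 0.146), and the Itgae call without replicate 3 of the ileum without antibiotic (adjusted p = 0.0835) or replicate 13 of the vancomycin colon (adjusted p = 0.0609). Klrd1 (-1.63 ± 0.36, adjusted p = 0.137), Il2rb (-0.98 ± 0.27, adjusted p = 0.273) and Cd6 (-1.23 ± 0.32, adjusted p = 0.225) fell in the ileum without passing this test, so a difference between the tissues was not shown for them. Without replicate 11 of the vancomycin ileum, 8 members passed, with Cd3e (adjusted p = 0.0303), Cd3g (adjusted p = 0.0450), Cd6 (adjusted p = 0.0392) and Il2rb (adjusted p = 0.0341) in addition. In that run a more negative effect in the ileum passed for 64 of all probe sets, against 31 with all arrays.

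Without antibiotic, most of these genes were higher in the ileum than in the colon. In limma 22 of 34 members were higher in the ileum and 0 lower, where 9.59% of all probe sets were higher, and the members' median difference was 1.04, against -0.04 for all probe sets. They were 6 of 7 receptor genes, 3 of 6 accessory receptors, 4 of 6 signalling genes, 4 of 5 killer-cell receptors, 2 of 3 residence and cytokine receptor genes, 2 of 3 transcription factors and 1 of 4 regulatory genes. The gap was 4.87 ± 0.24 for Cd7, 4.04 ± 0.35 for Cd3g, 2.66 ± 0.23 for Cd3e, 2.66 ± 0.17 for Cd96, 2.39 ± 0.41 for Cd3d, 2.33 ± 0.28 for Cd8a, 2.32 ± 0.16 for Cd244a, 2.10 ± 0.25 for Klrd1 and 1.94 ± 0.18 for Itgae. Each of these passed in every alternative run. Thy1 (-0.06 ± 0.23), Cd2 (-0.01 ± 0.32), Cd28 (-0.12 ± 0.19), Klrk1 (-0.08 ± 0.17) and Eomes (-0.16 ± 0.25) were the 5 members not higher in the ileum by sign.

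Under vancomycin the gap between the tissues was called for fewer members. In limma 12 of 34 were higher in the ileum, where 7.67% of all probe sets were, and the members' median difference was 0.53, against -0.04 for all probe sets. Without vancomycin ileum replicate 11 there were 9. In that run 1975 of all probe sets passed as higher in the ileum, against 1502 with all arrays. Cd5 (0.73 ± 0.27, adjusted p = 0.0718), Txk (0.58 ± 0.20, adjusted p = 0.0545) and Klrk1 (0.51 ± 0.19, adjusted p = 0.0863) were lost. Cd3d (2.17 ± 0.44), Cd8b1 (2.22 ± 0.45), Bcl11b (1.20 ± 0.23) and Lat (1.12 ± 0.27) passed in both conditions, and their change of gap did not pass in the test of the difference of effects (adjusted p between 0.787 and 0.985). For Cd7 the gap was 1.91 ± 0.26 under vancomycin and 4.87 ± 0.24 without antibiotic, and it passed in both. The gap of Itgae was 0.18 ± 0.20 under vancomycin and 1.94 ± 0.18 without antibiotic, that of Cd244a was 0.40 ± 0.18 and 2.32 ± 0.16, and that of Klrd1 was 0.47 ± 0.26 and 2.10 ± 0.25 in the same order, and none of these 3 passed under vancomycin. In Itgae the vancomycin ilea (6.64 to 6.92) overlapped the vancomycin colons (6.35 to 6.91). These comparisons use the same arrays as the tests above and are not independent of them. Marker genes of other cells also differed between ileum and colon. Of 9 smooth muscle genes 8 passed as lower in the ileum without antibiotic (median -1.28) and 1 under vancomycin (median -0.58). Of 9 epithelial genes 3 passed as higher without antibiotic (median 0.27) and 2 under vancomycin (median 0.36). The part of other cells in the members' gaps was not tested.

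**Figure D4:**
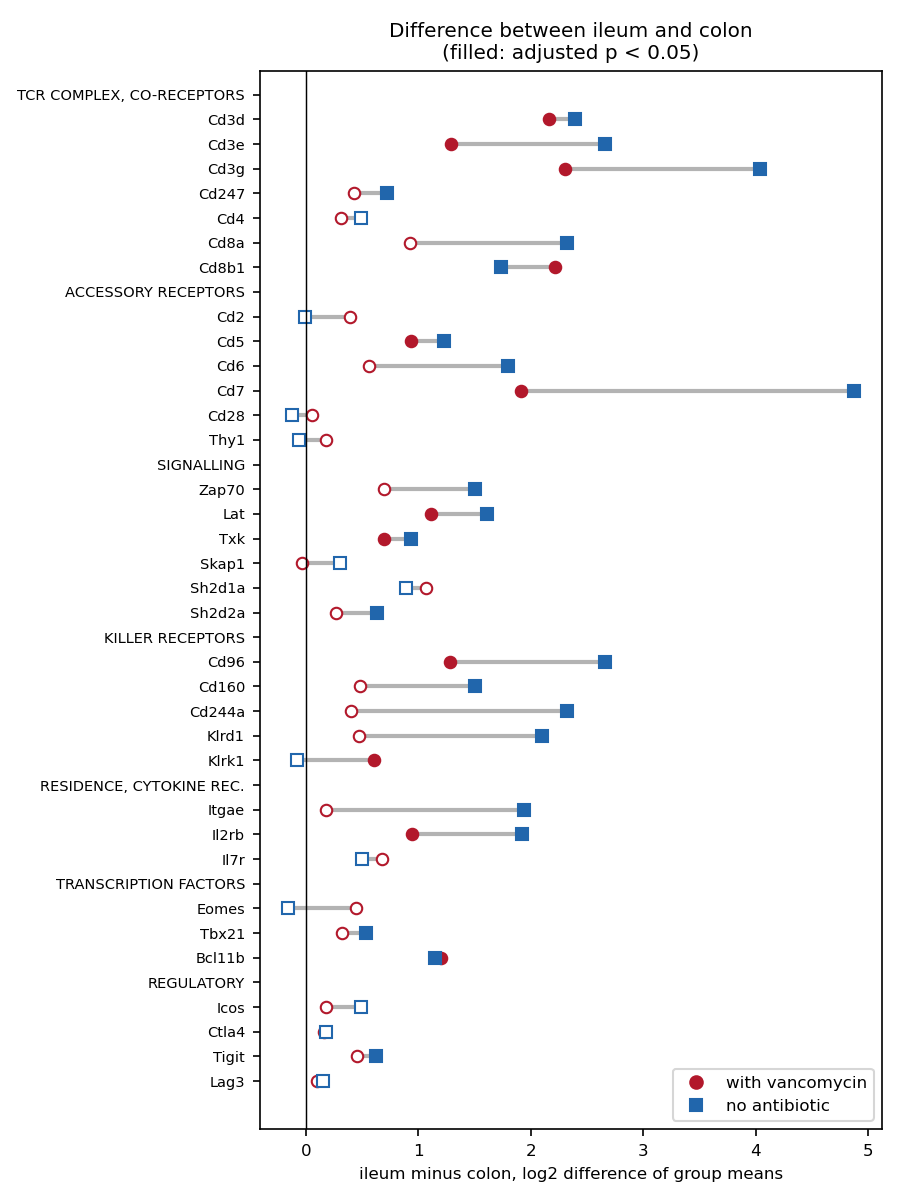
Ileum minus colon (log2 difference of group means) for each of the 34 measured genes, grouped by role, with red circles under vancomycin, blue squares without antibiotic and a grey line joining them. Filled symbols passed the adjusted threshold of 0.05. The squares of Cd7, Cd3g, Cd96, Cd244a, Klrd1 and Itgae lie well to the right of their circles, and the symbols of Bcl11b, Cd3d, Ctla4 and Lag3 nearly meet.

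Other genes of these pathways were described by lists. Of 26 measured genes that act in T cell receptor signalling beside the members, 0 passed in the ileum in limma, with 3 at an unadjusted p under 0.05 and a median difference of 0.02, and the smallest unadjusted p was that of Trat1, an adaptor of the receptor complex (-0.72 ± 0.29, adjusted p = 0.417). Without vancomycin replicate 11, 3 of the 26 fell, with a median of -0.24. They were Trat1 (-1.15 ± 0.19, adjusted p = 0.0109), the adaptor Grap2 (-1.02 ± 0.18, adjusted p = 0.0119) and the kinase Fyn (-0.998 ± 0.215, adjusted p = 0.0456). Ptprc, which encodes the pan-leukocyte antigen CD45, read 14.87, 12.55 and 11.79 in the vancomycin ilea and 13.16, 12.61 and 12.64 without antibiotic, with replicate 11 on top (0.27 ± 0.58, adjusted p = 0.917, and -0.63 ± 0.35, adjusted p = 0.574, without it). Of 22 measured effector and residence genes of cytotoxic and intraepithelial lymphocytes, 4 fell and 0 rose. They were granzyme B (Gzmb, -3.54 ± 0.42), granzyme A (Gzma, -3.45 ± 0.54), the granule protein Nkg7 (-1.83 ± 0.19) and the chemokine Ccl5 (-0.95 ± 0.12). These 4 passed again without replicate 11, and the gut-homing chemokine receptor Ccr9 fell there too, by 1.65 ± 0.26 (adjusted p = 0.00582).

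Of 19 measured ligands and cytokines for the member receptors, 2 fell in the ileum. Il7, the interleukin that Il7r binds, read 7.35, 7.26 and 6.85 in the vancomycin ilea, against 8.46, 7.99 and 8.76 without antibiotic (-1.25 ± 0.21, adjusted p = 0.0148). H2-T23, which encodes Qa-1, the ligand of CD94 with NKG2 chains, read 6.67, 6.61 and 7.09 in the vancomycin ilea, against 7.54, 7.68 and 8.20 without antibiotic (-1.02 ± 0.19, adjusted p = 0.0333). Neither ligand overlapped between the groups. Without vancomycin replicate 11 the H2-T23 call was lost (-0.96 ± 0.21, adjusted p = 0.0564) and Il7 fell by 1.35 ± 0.23 (adjusted p = 0.0114). Il15, which signals through Il2rb, differed by -0.05 ± 0.39 (0.41 ± 0.34 without replicate 11) and Cdh1, the E-cadherin bound by CD103, was among the 17 that did not pass.

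Markers of other cells were read beside the members. In the ileum 0 of 6 natural killer and innate lymphoid genes passed, with Ncr1, the receptor NKp46, at 0.35 ± 0.17 and Klrb1c, the antigen NK1.1, at -0.09 ± 0.16. Both genes read below 6.79, the limit of the lowest tertile, in every array, so it is not known whether they lie above background. Ncr1 was highest of all 13 arrays in replicate 11 (6.74) and stood at 0.16 ± 0.16 without that array. The mean of these 6 genes was 7.68 to 8.38 in the vancomycin ilea and 7.86 to 8.0 without antibiotic. Of 11 B cell, 9 myeloid, 9 epithelial and 9 smooth muscle genes 0 passed in limma, and at an unadjusted p under 0.05 there were 0 B cell, 2 myeloid, 0 epithelial and 4 smooth muscle genes, although all 9 smooth muscle genes were higher by sign (median 0.78) and all 11 B cell genes too (median 0.65). Without vancomycin replicate 11, 8 of the 9 smooth muscle genes were higher by sign (median 0.35), but 9 of the 11 B cell genes were lower (median -0.17), and 0 of either passed. Plasma cell genes were mostly lower in the vancomycin ilea, 7 of 8 by sign, with a median of -0.58, and 4 at an unadjusted p under 0.05. Their mean was 9.22 to 9.80 in the vancomycin ilea, against 10.07 to 10.24 without antibiotic, and the groups did not overlap. Of the 8, 1 fell, Prdm1, which encodes the factor Blimp-1 (-1.59 ± 0.31, adjusted p = 0.0397). Jchain, the joining chain of secreted antibody, differed by -1.83 ± 0.46 (adjusted p = 0.121). Without replicate 11 the Prdm1 call was lost (-1.30 ± 0.30, adjusted p = 0.0703), and Jchain fell by 2.31 ± 0.42 (adjusted p = 0.0176), as did Mzb1 (adjusted p = 0.0326) and Derl3 (adjusted p = 0.0239). The part of these other cells in the members' differences was not tested. In the colon, 0 genes of all these lists passed. Plasma cell genes were mostly lower there too, 7 of 8 by sign (median -0.41), with 4 at an unadjusted p under 0.05. Their mean was 8.82 to 9.38 in the vancomycin colons, against 9.44 to 9.77 without antibiotic, with no overlap. The difference of effects passed for 0 of these 8 genes, so a difference between the tissues was not shown for them.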

How the data were processed

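Total RNA of 13 ileum and colon samples was hybridised to Affymetrix mouse arrays. The authors deposited log2 values for which the submitters' processing notes name RMA and, as software, Affymetrix Expression Console, version 1.4.1.46. The 13 columns hold 28846 probe sets from 3.01 to 18.25, with array medians of 7.98 to 8.14. No detection calls were used. Platform annotation names 19572 probe sets, all matched by Entrez identifier in RefSeq GRCm38.p6. Where a gene has several, the probe set with the highest mean was taken.

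Groups follow the labels for tissue and treatment. A group-means model over all 13 arrays was fitted with lmFit and eBayes (limma 3.58.1 under R 4.3.3), with 5 contrasts and Benjamini-Hochberg adjustment over all 19572 named probe sets (threshold 0.05). Errors are SE of the fit. Alternatives were each comparison's arrays alone, array weights, an intensity trend with robust prior, leaving out the lowest tertile of mean level, quantile normalization, median centring, a mean over probe sets, a replicate block and leaving out each array. One more alternative, the ileum arrays alone without vancomycin replicate 11, was chosen after seeing the data. The fit was tested on simulated data. Log2 changes of 1 were recovered in 58.2% of cases in the ileum, 50.7% in the colon and 34.3% for the difference of effects. Changes of 2 were recovered in 92.5%, 97% and 88.1% in the same order. The simulated data held no array that stood apart as replicate 11 did. All members may be named; of each other list, up to 4 genes with the smallest p in the ileum, plus Ptprc, Ms4a1, Epcam, Myh11, Gzma, Gzmb and Nkg7; Il15, Cdh1 and Klrb1c were named after their values were seen. The members and lists were chosen with earlier results of these data known.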

Additional observations from a re-analysis of the deposited data

Results flagged for a closer look

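Il7r in the colon without antibiotic had 1 array far from the others. Replicate 3 read 7.87, against 8.59, 8.62 and 8.53 in replicates 1, 2 and 5. Its gap to the nearest array was 0.880 of the group's range, where chance would mark about 1 in 20 groups. All 34 measured members were screened in this way and only Il7r was marked, which is no more than chance would give.

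For 4 members the vancomycin effect differed between the tissues by the test of the difference itself in limma. The effect in the ileum minus the effect in the colon was -2.96 for Cd7, -1.92 for Cd244a, -1.76 for Itgae and -1.38 for Cd96. In all 4 genes each of the 3 vancomycin ilea lay below each of the 3 ilea without antibiotic.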

How the results depend on the processing

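In the ileum 105 probe sets and 7 members passed. The fit of the ileum arrays alone passed 20 and 2, array weights 1012 and 12, and the ileum alone without vancomycin replicate 11 passed 182 probe sets. Cd244a and Itgae passed in all 21 alternatives, Cd7 and Cd96 in all but the fit of the ileum alone. In the colon 2 probe sets passed, against 0 with the colon alone, 0 with median centring, 1 without the lowest tertile of mean level and 38 with array weights. For the difference of effects, 37 probe sets and 4 members passed, against 191 and 10 with array weights. For ileum minus colon under vancomycin 2961 probe sets passed, against 1875 with these arrays alone and 4903 with array weights. The cause was not tested.

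Leaving out each array in turn gave 40 to 172 probe sets and 4 to 10 members in the ileum, lowest without replicate 3 of the ileum without antibiotic and highest without vancomycin replicate 11. It gave 0 to 217 probe sets and 0 to 0 members in the colon, highest without replicate 3 of the colon without antibiotic, and 12 to 84 and 2 to 8 for the difference of effects. For ileum minus colon it gave 2910 to 4666 and 18 to 24 without antibiotic, and 2192 to 3948 and 9 to 14 under vancomycin. Il7r, ileum minus colon under vancomycin, was 0.68 with all arrays. It was -0.0050 without vancomycin ileum replicate 11, where it did not pass, and 1.27 without vancomycin ileum replicate 14, where it passed (adjusted p = 0.0488). Signal over background was not available, so for the 9 members in the lowest tertile it is not known whether values lie above background.

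Colon and ileum share sample numbers, and same-numbered arrays correlated between -0.0162 and 0.2358 in their deviations, not all above 0.1, so the numbers were not taken as pairs. Among the vancomycin arrays the same-numbered values were 0.2358, 0.1757 and 0.1075, and the others ran from -0.2271 to 0.1493. Whether a shared number marks the same mouse is not known. With a fixed replicate block the difference of effects passed 23 probe sets and 2 members (the calls of Cd244a, adjusted p = 0.0677, and Cd96, adjusted p = 0.0835, were lost), and with a random block 43 and 4. Vancomycin and untreated arrays of a tissue share no number.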
